A study of Mus musculus with 34 samples.

Results

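Both control lines of a mouse colon tumour organoid study were compared with each other, to show what differs between controls of the same genotype. The comparison used 13 of the 34 libraries of the series: 3 labelled Scrambled, the control of the CRISPR experiment, and 10 labelled shControl, the control of the hairpin experiment. Organoids are epithelial cells grown in 3 dimensions as hollow or budding structures. All 13 libraries carried the genotype AKP, colon tissue and an epithelial cell type on their labels. Neither Degs1 nor Yap1, the genes targeted elsewhere in the series, was targeted in these libraries. The CRISPR line was handled with a ribonucleoprotein method and the hairpin line was named for a scrambled hairpin, the tool of RNA interference. Line and method come together in the labels and cannot be told apart. Each control was treated here as 1 line, since the labels give no separate clones or cultures, and n counts libraries. The p-values therefore measure only how much these libraries vary, and that variation may be technical.

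Members of the comparison were all genes that passed a filter on low counts, 11247 of the 54354 genes in the table. Library totals were 4152399 to 6321118 counts in Scrambled and 1747533 to 5914945 in shControl, against 883253 to 6597099 over the series, so genes with few reads carry the larger errors. Levels are given as CPM, counts scaled to library size with TMM factors of all 34 libraries, and differences as log2 fold changes with their standard error (Scrambled minus shControl, edgeR's quasi-likelihood test with Benjamini-Hochberg adjustment over all 11247 genes, called at an adjusted p below 0.05). The epithelial identity markers summed to 4985 to 5213 CPM in Scrambled and 3565 to 3992 in shControl, so both lines carried the labelled cell type. Summed markers of blood cells, fibroblasts, endothelium and nerve stayed at or below 2.98 CPM in every one of the 13 libraries, and none of those genes passed the filter. Degs1 lay at 8.10, 4.95 and 10.2 CPM in Scrambled and at 2.63 to 7.93 CPM in shControl (0.51 ± 0.32, adjusted p = 0.523). Yap1 lay at 18.3, 12.2 and 14.0 CPM in Scrambled and at 9.51 to 22.1 CPM in shControl (-0.19 ± 0.24, adjusted p = 0.789). The ranges of both targeted genes overlapped between the controls.

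The intestinal epithelium renews itself from crypt stem cells that carry the receptor Lgr5 and depend on Wnt signals. In that pathway beta-catenin enters the nucleus, binds TCF and LEF factors and switches on targets, many of which encode inhibitors that feed back on the signal. Genes for digestion, barrier and mucus come on as cells leave the crypt, with the HNF4 and CDX proteins among the factors involved. A scrambled or non-targeting control is meant to carry the handling of an experiment without its target, and each line is also a population with a history of its own.

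In Scrambled 99 genes were higher and 92 lower than in shControl, 191 in all (1.7% of those tested, 0.88% higher and 0.818% lower). The pore-forming claudin Cldn2, the transcription factor Isx and the stem cell receptor Lgr5 were among the higher genes. Albumin, the adaptor Pid1, the differentiation gene Dapl1, the secreted Wnt inhibitor Wif1 and the metallothionein Mt3 were among the lower ones. The lower side held most of the large differences: 71 of the 92 lower genes and 32 of the 99 higher genes differed by at least 1 on the log2 scale. The CPM ranges of both lines did not overlap for 170 of the 191, against 4.54% of all genes tested. Calls and ranges come from the same values, so the separate ranges add no support to the calls. The median log2 fold change over all genes tested was -0.05, and 185 of the 191 were typed as protein coding.

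**Figure D1:**
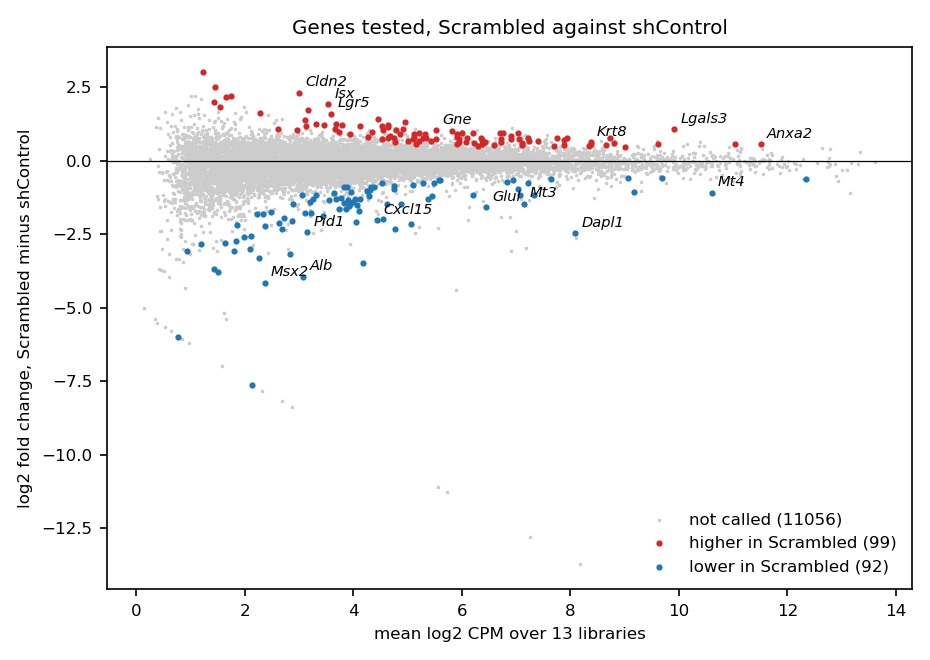
Log2 fold change (Scrambled minus shControl, vertical axis) of the 11247 genes tested against their mean log2 CPM over 13 libraries (horizontal axis). Red points are the 99 genes called higher and blue points the 92 called lower, and the blue points reach farther from 0 than the red ones. The grey points at the bottom, Rps16-ps2 among them, were not called.

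The count rested on every library of the smaller group and on how like libraries were treated. Without Scrambled replicate 1, 2 or 3 the calls were 34, 24 and 30. The shControl libraries were divided into 3 sets called runs here. A gap in the library numbers separates replicates 1 to 4 from 5 to 10, and the division of the latter into 5 to 7 and 8 to 10 came from earlier results on these data, not from the labels. With limma-trend 13 genes were called, 2 higher and 11 lower, when libraries of 1 run were given a shared random effect, against 165 without that block. Set against 1 run alone, Scrambled differed in 1380 genes from replicates 1 to 4, in 1406 from 5 to 7 and in 1425 from 8 to 10. Of the 191 genes, 171, 179 and 172 were called in the same direction against each run in turn. All of the 191 that could be tested kept their direction in each of the 15 other fits. Called in every one of those fits were 9 genes: Isx and Gne on the higher side, and Alb, Pid1, Dapl1, Cxcl15, Mt3, Glul and Msx2 on the lower side.

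How near the controls lay to each other differed between the runs. Pearson r of log2 CPM across 11960 genes, which are not independent replicates, had a median of 0.968 within Scrambled and 0.939 within shControl. Between Scrambled and shControl replicates 8 to 10 the median r was 0.955, above the 0.944 between shControl replicates 5 to 7 and 8 to 10 and the 0.937 between replicates 1 to 4 and 8 to 10. The library numbers of shControl 5 to 10, the 3 libraries labelled shYAP and the 3 Scrambled libraries follow one another, and the labels name no sequencing batch. Of the 92 lower genes, shControl 8 to 10 was the run nearest to Scrambled in 51, 1 to 4 in 28 and 5 to 7 in 13. Of the 99 higher genes, shControl 8 to 10 was nearest in 42 and 5 to 7 in 41, with 1 to 4 nearest in 16.

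**Figure D2:**
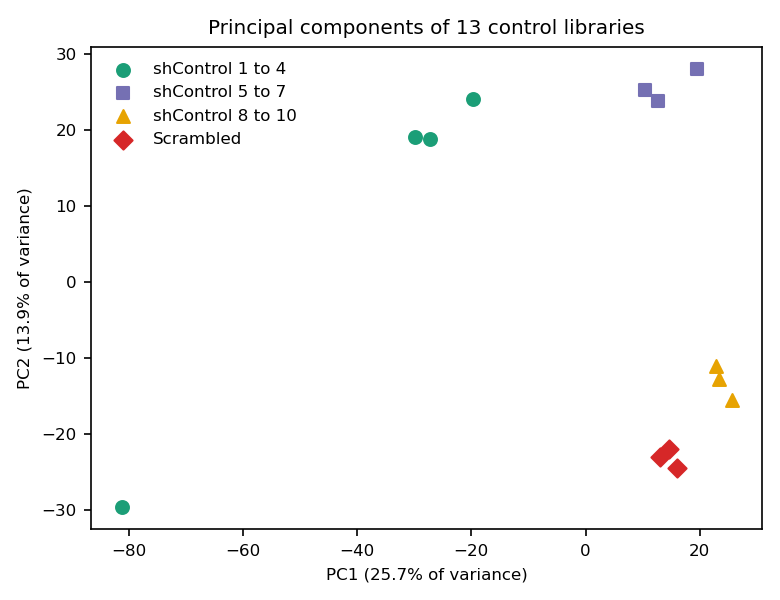
First and second principal component of the 13 libraries (25.7% and 13.9% of the variance), with symbols for Scrambled and for each run of shControl. Scrambled lies beside shControl 8 to 10, and the single point at the lower left is shControl replicate 3, the shallowest library.

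Some processed pseudogenes followed the runs and not the lines. Rps16-ps2, a copy of a ribosomal protein gene, lay at 407 to 517 CPM in shControl replicates 1 to 4 and at 0 counts in replicates 5 to 10 and in Scrambled. It was also at 0 in clone1, in clone2 replicates 1 and 2 and in the libraries labelled shYAP, and at 937 to 1223 CPM in clone2 replicates 3 to 9. In all 5 genes, all typed as pseudogenes and none of them called, had at least 1 CPM in each of shControl 1 to 4 and no count in the other 9 control libraries. These were picked out once their values had been seen. The parent gene Rps16 lay at 3817 to 4194 CPM in shControl 1 to 4, 3358 to 3924 in shControl 5 to 10 and 3435 to 3785 in Scrambled. Reads shared by near-identical copies make such levels uncertain, and the part of this pattern in the other results was not tested.

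The largest differences downward, among well-expressed genes whose ranges did not overlap, began with Alb. Albumin is the main plasma protein of liver. Alb (ENSMUSG00000029368, mm10 chromosome 5, 90460897 to 90476602) lay at 0.694, 0.773 and 0.406 CPM in Scrambled and at 5.28, 8.96 and 17.4 CPM at the lowest, the median and the highest in shControl. Every shControl library was above every Scrambled one, and the difference was -3.94 ± 0.48 (adjusted p = 2.20e-04). The libraries labelled shYAP, at 0.221 to 0.948 CPM, and clone2, at 0 to 2.50 CPM, were also low, and clone1 spread from 0.795 to 8.62 CPM. Scrambled was thus not the lowest group, and shControl had the highest mean of the 5.

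Dapl1 and Pid1 followed. Dapl1 encodes a small protein found in differentiating epithelia, and lay at 62.0, 64.4 and 52.6 CPM in Scrambled. In shControl its lowest, median and highest values were 159, 370.0 and 436 CPM (-2.45 ± 0.32, adjusted p = 0.00137). The lowest of those were replicates 8 to 10, at 159 to 208 CPM, so the difference from the nearest run was smaller than from the others. Pid1 encodes an adaptor that binds the LDL receptor-related protein and dampens insulin signalling, and lay at 3.01, 1.70 and 1.02 CPM in Scrambled. Its shControl values ran from 7.64 to 13.8 CPM with a median of 9.55 (-2.43 ± 0.35, adjusted p = 0.00136). All 3 runs of Pid1 overlapped one another, whereas shControl 8 to 10 stood apart for Dapl1. Both genes were highest in clone2, at 1322 to 2502 CPM for Dapl1 and 42.4 to 79.9 CPM for Pid1.

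Secreted and lipid-handling proteins made up several of the others. Cxcl15, a chemokine of mouse epithelia, lay at 6.71, 6.03 and 5.89 CPM in Scrambled and at 14.9, 25.9 and 36.6 CPM (lowest, median, highest) in shControl (-2.02 ± 0.30, adjusted p = 0.00161). Fabp4, a fatty acid carrier best known from fat cells and macrophages, lay at 5.09, 5.88 and 2.44 CPM against 9.31, 16.7 and 36.1 CPM (-2.07 ± 0.46, adjusted p = 0.0269). Its epidermal relative Fabp5 lay at 83.3, 87.9 and 68.7 CPM against 120.4, 171 and 247 CPM (-1.16 ± 0.21, adjusted p = 0.00618). For all 3 genes the groups did not overlap, which the rule that named Cxcl15 and Fabp4 required. The call of Fabp4 was lost without any single Scrambled library (adjusted p = 0.126 to 0.165), whereas that of Cxcl15 held. Wfdc18, a small secreted protein with a protease inhibitor fold, was lowest in Scrambled at 2.78, 4.02 and 3.05 CPM, and shControl began just above, at 4.25 CPM, and reached 24.3 (-1.88 ± 0.46, adjusted p = 0.0403).

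Tcaf1, Egr1, Btbd8 and Aga completed the 12 largest downward differences, together with Wif1 and Apcdd1 below. Tcaf1 encodes a partner of the cold-sensing TRPM8 channel. It lay at 5.55, 7.58 and 7.32 CPM in Scrambled, at 10.2 to 15.8 CPM in shControl 8 to 10 and at 28.1 to 36.6 CPM in shControl 1 to 7 (-1.97 ± 0.37, adjusted p = 0.00721). Here the gap between the runs of shControl exceeded the gap between Scrambled and the nearest run. Egr1, an immediate early transcription factor, lay at 3.47, 3.09 and 1.83 CPM against 3.73 to 15.7 (-1.77 ± 0.44, adjusted p = 0.0382), so the ranges all but touched. Btbd8 averaged 6.06 ± 1.497 CPM (SD, n = 3) against 19.5 ± 7.62 (n = 10), with a difference of -1.70 ± 0.34 (adjusted p = 0.0116). Aga, a lysosomal enzyme that cleaves sugar from asparagine, averaged 4.79 ± 0.310 against 14.7 ± 5.61 CPM (-1.64 ± 0.34, adjusted p = 0.0139).

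Glul and Msx2 were outside those 12 but were 2 of the 9 genes called in every fit, and are named for that reason after their values were seen. Glul encodes glutamine synthetase, a Wnt-dependent gene in liver, and lay at 33.5, 35.1 and 32.7 CPM in Scrambled against 58.3, 99.7 and 139.8 CPM (lowest, median, highest) in shControl (-1.56 ± 0.25, adjusted p = 0.00229). Msx2, a homeobox factor downstream of BMP signals, lay at 0.463, 0.464 and 0 CPM against 2.10 to 10.5 CPM (-4.14 ± 0.68, adjusted p = 0.00304). Scrambled was therefore near the limit of detection for Msx2, and the fold depends on few reads.

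Upward, Cldn2 and Isx had the lowest adjusted p-values. Cldn2 encodes a claudin that forms cation- and water-permeable pores in leaky epithelia. It (ENSMUSG00000047230, chromosome X, 139800828 to 139811386) lay at 18.3, 18.1 and 20.1 CPM in Scrambled and at 1.51, 3.73 and 5.60 CPM (lowest, median, highest) in shControl (2.32 ± 0.27, adjusted p = 1.82e-04). The highest shControl library was below the lowest Scrambled library, as the naming rule required. The libraries labelled shYAP, at 7.95 to 9.95 CPM, lay between. With the run block its limma estimate was 2.30 (adjusted p = 0.0513). Isx encodes an intestine-specific homeobox factor that restrains vitamin A uptake. Isx (ENSMUSG00000031621, chromosome 8, 74873173 to 74893506) lay at 24.8, 25.1 and 24.8 CPM in Scrambled and at 3.04, 6.54 and 9.30 CPM in shControl (1.94 ± 0.24, adjusted p = 2.20e-04). The SD over the 3 Scrambled libraries was 0.167 CPM.

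Lgr5, the R-spondin receptor that marks crypt-base stem cells, lay at 25.2, 18.7 and 25.4 CPM in Scrambled. In shControl it ran from 3.93 to 14.5 CPM with a median of 6.97 (1.60 ± 0.29, adjusted p = 0.00618). As the naming rule required, all 10 libraries lay below Scrambled. The call was lost without Scrambled replicate 1 (adjusted p = 0.0543) or replicate 3 (adjusted p = 0.062), and held without replicate 2 (adjusted p = 0.039). With the run block it was lost as well (limma, 1.59, adjusted p = 0.218). Lgr5 was low in the libraries labelled shYAP, at 1.66 to 2.65 CPM, and in clone2, at 0.409 to 2.14 CPM, while clone1 spread from 5.06 to 18.8 CPM. Scrambled thus had the highest mean of the 5 groups, with its lowest library inside the range of clone1.

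**Figure D3:**
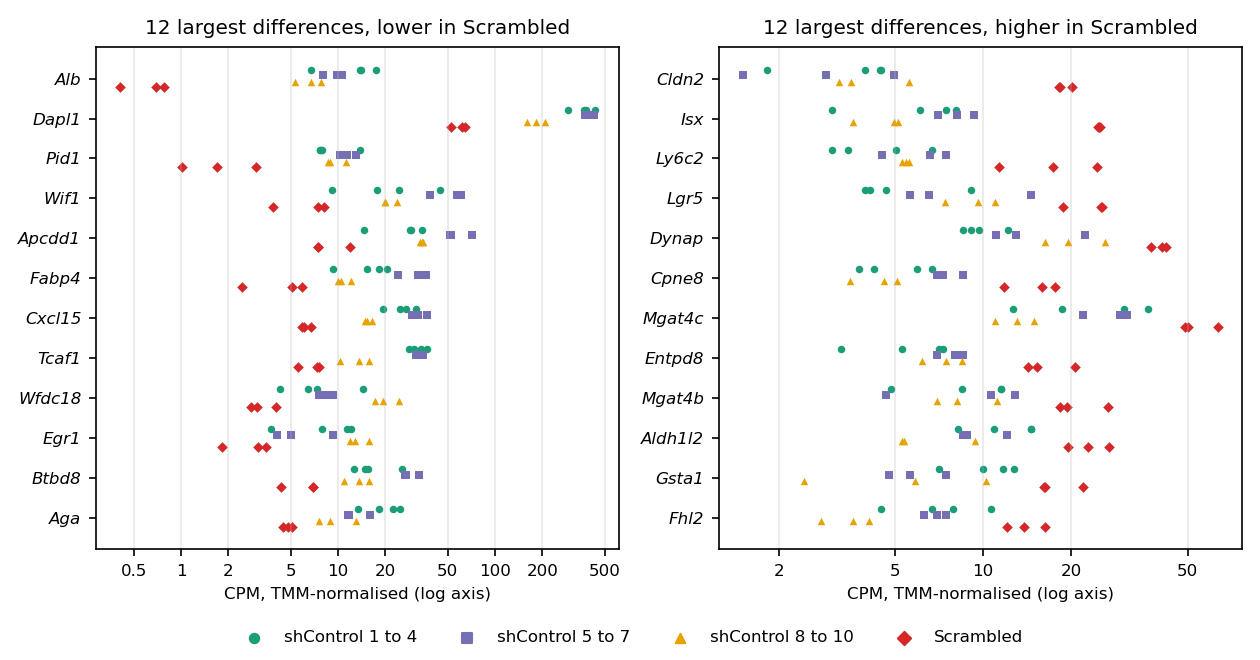
CPM (log axis) in each of the 13 libraries of the 12 largest downward (left) and 12 largest upward (right) differences named by rule. Diamonds are Scrambled and the other symbols are the runs of shControl. The diamonds stand apart in every row, as the rule required, from Alb at 0.406 to 0.773 CPM to Cldn2 at 18.1 to 20.1 CPM. For Tcaf1 the run of replicates 8 to 10 stands apart from the other runs too.

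Sugar-handling enzymes and detoxifying genes were among the other large upward differences. Mgat4c and Mgat4b belong to a family of transferases that add a branch to N-linked glycans, and Mgat4c lay at 49.98, 63.6 and 48.8 CPM in Scrambled against 10.9, 20.3 and 36.5 CPM (lowest, median, highest) in shControl (1.31 ± 0.29, adjusted p = 0.0244). Mgat4b lay at 18.3, 26.6 and 19.3 CPM against 4.65 to 12.8 CPM (1.24 ± 0.26, adjusted p = 0.0166). Of 7 tested N-glycan branching genes, a list chosen after values were seen, 2 were higher and 5 not called, with a median of 0.05. Of all genes 0.88% were higher. Gsta1, a glutathione transferase with close paralogs, averaged 18.1 ± 3.31 CPM (SD, n = 3) against 7.79 ± 3.30 (n = 10), and sharing of reads with those paralogs makes its level uncertain (1.22 ± 0.31, adjusted p = 0.0468). In the NRF2 and glutathione list 2 of 20 tested genes were higher (0.88% of all genes) and 18 not called, with 10 members above 0 and 10 below. Aldh1l2, a mitochondrial enzyme of folate metabolism, averaged 23.1 ± 3.80 against 9.76 ± 3.28 CPM (1.23 ± 0.26, adjusted p = 0.0161), and Entpd8, an ectonucleotidase, 16.7 ± 3.37 against 6.86 ± 1.61 CPM (1.27 ± 0.25, adjusted p = 0.00817). In each of these genes all 3 Scrambled libraries exceeded all 10 of shControl, as the rule that named them required.

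The rest of the 12 were Ly6c2, Dynap, Cpne8 and Fhl2. Ly6c2, a surface protein of the Ly6 family, averaged 17.7 ± 6.56 CPM (SD, n = 3) against 5.31 ± 1.40 (n = 10), with a difference of 1.74 ± 0.26 (adjusted p = 0.00169), and its close relatives could share its reads. Dynap lay at 37.5, 42.2 and 40.8 CPM against 8.57 to 26.1 CPM (1.43 ± 0.26, adjusted p = 0.00618). Cpne8, a calcium-dependent membrane-binding protein, averaged 15.1 ± 2.99 against 5.66 ± 1.68 CPM (1.39 ± 0.26, adjusted p = 0.00618). Fhl2, a LIM-domain cofactor, averaged 14.0 ± 2.11 against 6.08 ± 2.38 CPM (1.20 ± 0.30, adjusted p = 0.0404), and its call was lost in 8 of 17 other settings.

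Of 17 tested crypt-base stem cell genes 3 were higher and none lower, where 0.88% and 0.818% of all genes were, and their median was 0.27. With the run block 0 of these calls were left, and leaving out Scrambled replicate 1, 2 or 3 left 0, 2 and 1. Beside Lgr5 these were Cdca7, a MYC-responsive nuclear protein, at 180.2, 154 and 165 CPM against 62.4 to 114 CPM (0.95 ± 0.17, adjusted p = 0.0058), and Prom1, a protein of membrane protrusions, at 112, 101 and 121 CPM against 53.5 to 79.1 CPM (0.63 ± 0.14, adjusted p = 0.0237). Ascl2, the transcription factor that sustains those cells, lay at 245, 251 and 106 CPM against 22.1 to 157 CPM and was not called (1.11 ± 0.48, adjusted p = 0.356). Olfm4, another marker of the crypt base, had no count in Scrambled and at most 0.387 CPM in shControl.

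Of 18 tested Wnt/beta-catenin targets, none was higher and 6 were lower, where 0.88% and 0.818% of all genes were. The list's median was -0.97 where that of all genes was -0.05. The 6 were Wif1, Apcdd1, Notum, Lef1, Bambi and Nkd1. Lgr5, called higher above, was placed in the crypt-base list and not in this one, so these counts depend on how the lists were drawn up. Wif1 encodes a secreted protein that binds Wnt ligands, and lay at 8.10, 7.43 and 3.86 CPM in Scrambled against 9.11, 24.0 and 61.0 CPM (lowest, median, highest) in shControl (-2.32 ± 0.54, adjusted p = 0.0486). Apcdd1, a membrane inhibitor of the receptor complex, lay at 7.40, 7.43 and 12.0 CPM against 14.6, 34.2 and 71.3 CPM (-2.13 ± 0.36, adjusted p = 0.0058). Both were highest in shControl 5 to 7, at 38.7 to 61.0 and 51.5 to 71.3 CPM, and Scrambled lay below each run.

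Notum encodes an enzyme that removes the lipid Wnt proteins need, and lay at 8.33, 6.19 and 5.69 CPM against 10.03 to 23.7 CPM (-1.41 ± 0.26, adjusted p = 0.00618). Lef1, a DNA-binding partner of beta-catenin, averaged 3.79 ± 1.48 CPM (SD, n = 3) against 9.80 ± 3.01 (n = 10), with a difference of -1.40 ± 0.33 (adjusted p = 0.0314). Bambi, a decoy receptor for BMP and TGF-beta, averaged 18.9 ± 3.78 against 45.5 ± 14.1 CPM (-1.29 ± 0.26, adjusted p = 0.0117), and Nkd1, an inhibitor of Dishevelled, 20.98 ± 3.16 against 36.3 ± 4.37 CPM (-0.81 ± 0.17, adjusted p = 0.0168). Nkd1 is named beyond the 4 members the naming rule takes. Most of these act as feedback inhibitors, and 12 members of the list were not called. Among them Axin2 was at 71.5 ± 15.9 against 115 ± 34.9 CPM (-0.70 ± 0.26, adjusted p = 0.223), and Rnf43, which removes Wnt receptors, at 36.3 ± 5.50 against 40.9 ± 6.41 CPM (-0.19 ± 0.17, adjusted p = 0.673). The run block left 1 call in this list, and leaving out Scrambled replicate 1, 2 or 3 left 1, 0 and 1.

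**Figure D4:**
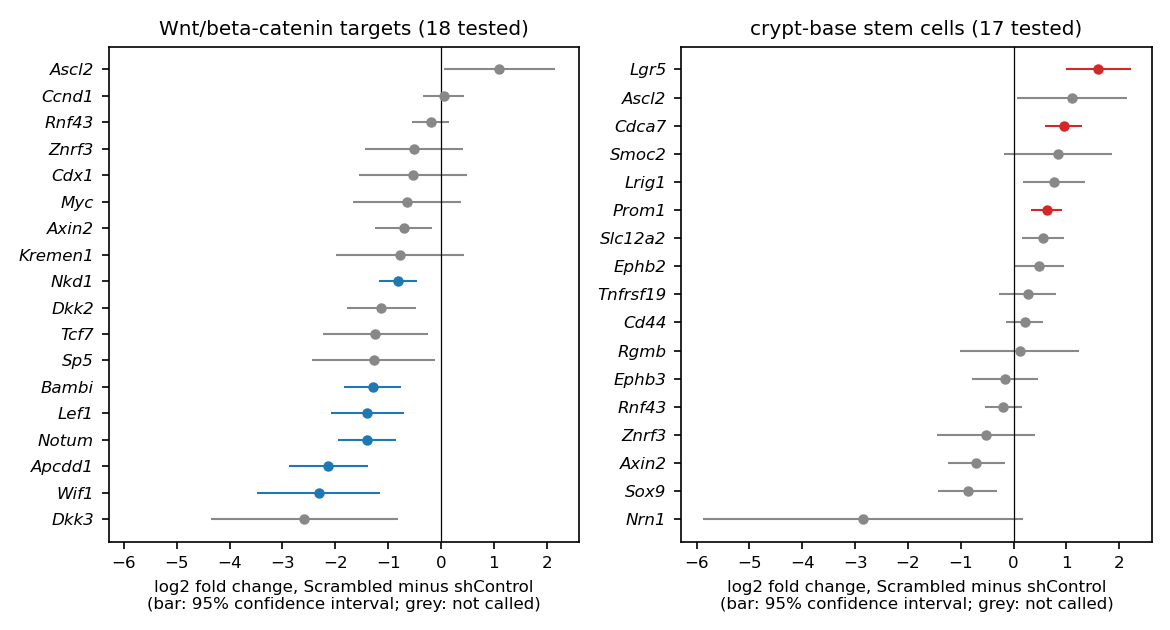
Log2 fold change (Scrambled minus shControl, horizontal axis) with its 95% confidence interval for the 18 Wnt/beta-catenin targets and the 17 crypt-base stem cell genes tested. Blue is called lower, red called higher and grey not called. On the left 16 of 18 points lie below 0, from Dkk3 at -2.59 to Ascl2 at 1.11, while on the right 11 of 17 lie above it. Ascl2, Axin2, Rnf43 and Znrf3 are in both lists.

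Of 10 epithelial identity markers 3 were higher in Scrambled and none lower, where 0.88% and 0.818% of all genes were. Their median was 0.23. No call in this list was left with the run block (0) or without Scrambled replicate 1, 2 or 3 (0, 0 and 0). Krt8 and Krt18 encode the paired keratins of simple epithelia. Krt8 lay at 456, 474 and 406 CPM against 209.9 to 356 CPM (0.64 ± 0.13, adjusted p = 0.0149), and Krt18 at 529, 571 and 454 CPM against 286 to 418 CPM (0.53 ± 0.13, adjusted p = 0.0351). Lgals4, a galectin of the gut surface, lay at 2811, 2649.8 and 2752 CPM against 1446 to 2106 CPM (0.59 ± 0.12, adjusted p = 0.00925). Epcam, the pan-epithelial adhesion molecule, averaged 290.0 ± 4.28 CPM (SD, n = 3) against 293 ± 49.2 (n = 10) and was not called (-0.04 ± 0.15, adjusted p = 0.939).

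Barrier and transcription factor lists held calls too, where 0.88% of all genes were higher and 0.818% lower. Of 22 tight junction and adhesion genes 2 were higher, Cldn2 and its relative Cldn15, which also forms cation pores in the gut. Cldn15 lay at 7.17, 4.49 and 5.08 CPM in Scrambled and at a median of 0.315 CPM in shControl, where replicate 5 alone reached 3.10 CPM (3.04 ± 0.73, adjusted p = 0.0349). Of 19 intestinal transcription factors 2 were higher and 1 lower. Beside Isx, Hnf4g, a nuclear receptor of enterocytes, lay at 3.70, 3.71 and 7.92 CPM against 0 to 2.63 CPM (adjusted p = 0.0463). Prox1, a homeobox factor of endocrine and tumour cells, lay at 5.09, 3.71 and 3.86 CPM against 6.48 to 14.5 CPM (-1.297 ± 0.28, adjusted p = 0.0187). Sct, the hormone secretin, was the lower of 2 tested enteroendocrine genes, at 5.87 ± 1.49 against 15.8 ± 5.50 CPM (-1.44 ± 0.33, adjusted p = 0.0246).

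Lists of differentiated function and metabolism held 1 to 3 calls each, where 0.88% of all genes were higher and 0.818% lower. Ceacam1, an adhesion molecule of the colonocyte surface, was higher at 999, 959 and 1113 CPM against 589.9 to 829.7 CPM (0.57 ± 0.12, adjusted p = 0.0131), the 1 called of 11 absorptive genes. Agr2, a disulfide isomerase needed for mucin folding, lay at 307, 308 and 309 CPM against 117 to 251 CPM (0.78 ± 0.17, adjusted p = 0.0225), the 1 called of 10 goblet cell genes. Acadl, which starts the oxidation of long-chain fatty acids, lay at 43.7, 47.2 and 50.8 CPM against 20.5 to 35.4 CPM (0.74 ± 0.16, adjusted p = 0.0227), so that 1 higher and 2 lower genes, Fabp4 and Fabp5, were called among 17 of fatty acid oxidation and PPAR. Ceacam1, Agr2 and Acadl were each higher in every Scrambled library than in any of shControl. Ugt2b34, which joins glucuronic acid to steroids and drugs, was lower at 13.9, 8.66 and 7.72 CPM against 14.7 to 36.8 CPM (-1.47 ± 0.29, adjusted p = 0.00929), the 1 called of 15 xenobiotic enzymes and efflux pumps.

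Mesenchymal and motility genes went in both directions. Of 8 tested, 2 were lower and 1 higher, where 0.818% and 0.88% of all genes were. Vim, the intermediate filament of mesenchymal cells, lay at 14.1, 10.5 and 11.6 CPM in Scrambled against 23.2, 29.8 and 56.9 CPM (lowest, median, highest) in shControl (-1.47 ± 0.26, adjusted p = 0.00556). Fn1, fibronectin, lay at 7.87, 6.03 and 4.88 CPM against 9.53 to 21.98 CPM (-1.45 ± 0.27, adjusted p = 0.00618). Spp1, the secreted phosphoprotein osteopontin, was higher instead, at 38.9, 36.4 and 46.9 CPM against 10.996 to 25.5 CPM (1.14 ± 0.21, adjusted p = 0.00618). The fibroblast markers themselves summed to at most 0.931 CPM in any control library, and the source of the Vim and Fn1 reads was not tested.

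Amino acid and stress genes had the most higher calls of any list. Of 25 genes of the integrated stress response, which responds to amino acid shortage through ATF4, 4 were higher and none lower. Over all genes tested 0.88% were called higher and 0.818% lower. The list's median was 0.12, and the ranges of 8 did not overlap, all higher in Scrambled (2.75% of all genes tested). Psat1, an enzyme of serine synthesis, lay at 336, 309.9 and 342 CPM against 151 to 291 CPM (0.72 ± 0.17, adjusted p = 0.0347). Slc3a2, the heavy chain of amino acid transporters, lay at 120.3, 194 and 129 CPM against 64.9 to 103 CPM (0.74 ± 0.16, adjusted p = 0.0224), and Stc2, a secreted glycoprotein, at 53.2, 48.9 and 46.7 CPM against 18.6 to 34.9 CPM (0.80 ± 0.17, adjusted p = 0.0149). Aldh1l2 was the fourth. With the run block 0 of these calls were left, and 1, 0 and 0 without Scrambled replicate 1, 2 or 3.

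Single members were called in several further lists, where 0.88% of all genes were higher and 0.818% lower. Ndrg1, induced by hypoxia, lay at 209.9, 211 and 217 CPM against 103 to 143 CPM (0.78 ± 0.13, adjusted p = 0.0043), and was the 1 called of 25 hypoxia and glycolysis genes. Car9, another hypoxia target, lay at 122, 122 and 129 CPM in Scrambled and spread from 27.0 to 97.0 CPM in shControl, and was not called (1.04 ± 0.38, adjusted p = 0.261). Tk1, the thymidine kinase of S phase, and Ccnb2, a mitotic cyclin, were the 1 called of 27 S phase genes and the 1 of 24 mitotic genes, at 0.74 ± 0.16 (adjusted p = 0.017) and 0.59 ± 0.15 (adjusted p = 0.0467). Those lists had medians of 0.26 and 0.26, where that of all genes was -0.05, with 24 of 27 and 20 of 24 members above 0. Summed, the S phase genes lay at 1660 to 1971 CPM in Scrambled, above shControl 1 to 7 (1044 to 1393 CPM) and below shControl 8 to 10 (2045 to 2101 CPM). The summed mitotic genes lay at 2701 to 2723 CPM in Scrambled and at 1811 to 2573 CPM in shControl. Usp18, a brake on interferon signals, was lower at 6.61 ± 1.303 against 16.3 ± 5.32 CPM (SD, n = 3 and n = 10), the 1 of 17 interferon genes called (-1.33 ± 0.29, adjusted p = 0.0211). Of 13 mitochondrially encoded transcripts, mt-Atp6 was called (-0.61 ± 0.14, adjusted p = 0.0246), all 13 were below 0, and mitochondrial transcripts made up 3.01% to 3.33% of counts in Scrambled and 3.72% to 5.25% in shControl.

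Revival, YAP and ceramide genes, the subject of the wider study, had few calls, where 0.88% of all genes were higher and 0.818% lower. Of 21 tested genes of the revival and fetal-like state, 2 were higher, Il1rn, which blocks the interleukin-1 receptor, at 232 ± 6.64 against 143 ± 26.1 CPM (SD, n = 3 and n = 10; 0.68 ± 0.16, adjusted p = 0.0287), and Anxa2, a membrane-binding annexin, at 3774 ± 112 against 2511 ± 164 CPM (0.57 ± 0.10, adjusted p = 0.00556). The revival markers Clu and Ly6a lay at 9.66 ± 1.49 against 10.9 ± 3.92 CPM and at 2713 ± 334 against 2020 ± 341 CPM and were not called. Of 18 YAP/TAZ-TEAD targets 1 was lower, the RNA-binding protein Rbms3 (-0.99 ± 0.24, adjusted p = 0.0314). None of 14 core Hippo genes and none of 34 sphingolipid enzymes was called by edgeR, with medians of -0.13 and -0.07. In simulated libraries of this size, drawn independently and without runs, 48% of genes made 1 higher on the log2 scale were called. Of those made 1 lower 39.6% were called, so small differences in these lists may not have been detectable.

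All 4 metallothioneins were lower in Scrambled than in shControl without overlap of the ranges, where 1.8% of all genes were. Of the 4, 3 were called, where 0.818% of all genes were called lower. Metallothioneins bind zinc and copper and are induced by these metals through the factor MTF1. The family was chosen after its values were seen. Mt3 lay at 53.7, 68.1 and 54.1 CPM against 101, 174 and 208 CPM (lowest, median, highest) in shControl (-1.45 ± 0.22, adjusted p = 0.0021), and shControl 8 to 10 were the lowest of those, at 101 to 109.7 CPM. Mt4 lay at 824, 882 and 753 CPM against 1122, 1738 and 2323 CPM (-1.08 ± 0.20, adjusted p = 0.00618), with its lowest run in replicates 1 to 4. Mt2 lay at 571, 621 and 549 CPM against 781, 854 and 994 CPM (-0.58 ± 0.12, adjusted p = 0.0118). Mt1 lay at 1812, 1889 and 1782 CPM against 1919, 2354 and 2581 CPM and was not called (-0.33 ± 0.12, adjusted p = 0.215). All 4 had their highest mean in clone2. Summed, they lay at 3138 to 3460 CPM in Scrambled, 3264 to 3517 in the libraries labelled shYAP and 4636 to 5986 in shControl. Low summed levels were therefore not particular to Scrambled. Mtf1 lay at 6.70 ± 2.95 against 9.23 ± 2.85 CPM and was not called. Slc30a2, a zinc exporter, was the 1 called of 12 zinc transporters (-1.20 ± 0.24, adjusted p = 0.00934), and its ranges overlapped.

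Promoters of Mt2 and Mt4 are shown for an extended core of the metal response element, TGCNCNC followed directly by GGC. Searched on both strands, it was present in them and in 1.06% of 32851 promoters of the same length. It was not found in the same window of Mt1 and Mt3, which says only that these letters are not there. The shorter TGCNCNC alone was not searched, so copies of it are not marked or counted. Capitals mark the match, which lies on the plus strand in Mt2 (chr8:94172368-94172617) and on the minus strand in Mt4 (chr8:94136954-94137203). Both are RefSeq promoters of GRCm38.p6, 250 bases before the start site, plus strand.
Mt2: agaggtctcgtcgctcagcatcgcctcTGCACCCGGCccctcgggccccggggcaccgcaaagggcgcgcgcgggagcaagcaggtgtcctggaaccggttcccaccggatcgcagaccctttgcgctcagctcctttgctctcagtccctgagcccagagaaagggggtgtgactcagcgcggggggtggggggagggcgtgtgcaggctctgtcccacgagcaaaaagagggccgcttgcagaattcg
Mt4: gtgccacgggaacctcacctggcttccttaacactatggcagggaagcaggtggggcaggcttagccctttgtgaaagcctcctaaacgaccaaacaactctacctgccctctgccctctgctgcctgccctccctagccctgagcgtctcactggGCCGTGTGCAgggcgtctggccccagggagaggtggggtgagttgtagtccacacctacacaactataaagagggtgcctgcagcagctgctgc

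Genes that supply sialic acid, the sugar that caps many cell-surface glycans, were a further group chosen after its values were seen. Gne, which makes its precursor in the committed step, lay at 71.5, 71.3 and 77.01 CPM in Scrambled against 28.4, 33.8 and 50.5 CPM (lowest, median, highest) in shControl (1.05 ± 0.16, adjusted p = 0.00169). Slc35a1, which carries CMP-sialic acid into the Golgi, lay at 36.8, 39.0 and 40.8 CPM against 10.3, 17.1 and 21.05 CPM (1.19 ± 0.19, adjusted p = 0.0021). Nans and Cmas, the enzymes between them, were not called, Nans at 117 ± 4.20 against 84.8 ± 11.7 CPM (0.44 ± 0.14, adjusted p = 0.153) and Cmas at 65.3 ± 4.48 against 66.9 ± 11.3 CPM (-0.06 ± 0.16, adjusted p = 0.914; SD, n = 3 and n = 10). Of 5 genes of this supply 2 were called higher, where 0.88% of all genes were. The Golgi carrier Slc35a3 is outside these 5. It is in a list of 8 sugar-nucleotide carriers, also chosen after values were seen, of which 2 were higher. Slc35a3 lay at 96.6 ± 5.38 against 56.0 ± 7.68 CPM (0.76 ± 0.14, adjusted p = 0.00618). In the other lines Gne lay at 14.6 to 24.1 CPM in the libraries labelled shYAP, 29.1 to 42.9 in clone1 and 27.01 to 42.8 in clone2, all below Scrambled.

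**Figure D5:**
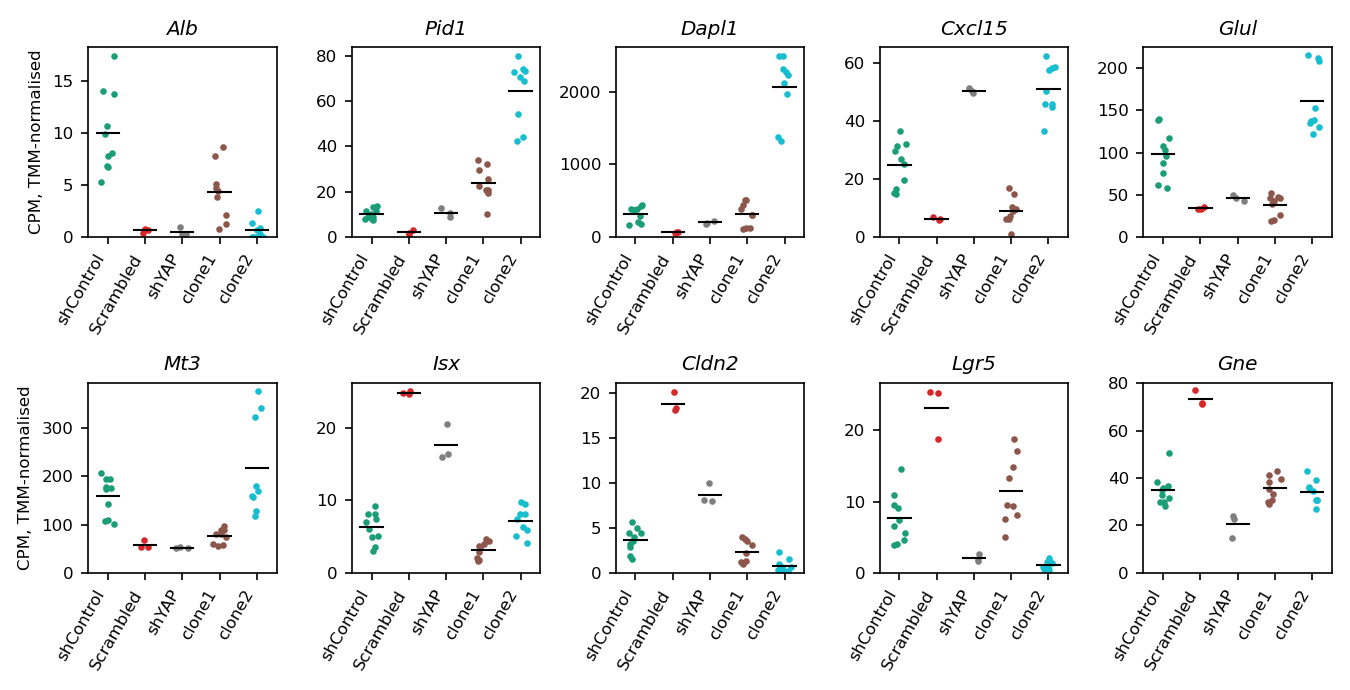
CPM of 10 leading genes in every library of the 5 groups, with a bar at each group's mean. Isx, Cldn2, Lgr5 and Gne have their highest points in Scrambled, and Pid1 and Dapl1 their lowest, at 1.02 to 3.01 and 52.6 to 64.4 CPM.

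A gene was counted as off in a line with at most 3 counts over all its libraries, and as on with at least 1 CPM in every library. By that rule 1 gene was off in Scrambled and on in shControl. Tmsb15b1, a thymosin that binds actin monomers, had 3 counts over the 3 Scrambled libraries and 136 over the 10 of shControl, where every library had at least 1.40 CPM (adjusted p = 0.0149, with no fold given for so few counts). It has near-identical relatives that could share its reads. The pseudogenes Gm27149 and Mrip-ps, both called and named after their values were seen, had 0 counts in Scrambled against 212 and 72 in shControl, where each was at 0 in at least 1 library. No gene was off in shControl and on in Scrambled. Median log2 fold changes by chromosome ran from -0.12 on chromosome 5 to -0.01 on chromosome 15. Hair-type keratins had 11 tested members, all below 0 with a median of -1.71, and none was called by edgeR. Summed over the list they lay at 37.8 to 48.9 CPM in Scrambled and at 19.8 to 266 CPM in shControl, so the ranges overlapped. Of all 49 lists, 24 had at least 1 called member, 21 had tested members and none called, and 4 had no member tested. Over all genes 1449 had an unadjusted p below 0.05.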

How the data were processed

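RNA of mouse colon tumour organoids was sequenced after poly(A) selection in strand-specific libraries, per the labels' protocols. The authors deposited expected counts per gene in 1 table, and the submitters' processing notes name Salmon 1.3.0 and build mm10. The annotation they used and the way transcripts were summed are not given in the sources used here. Gene positions were taken from GENCODE M21 and promoters from RefSeq GRCm38.p6, which matched 146 of the 191 called genes by symbol. The 1243 entries with no gene name, with up to 0.0475% of a library's counts, were kept under their gene identifiers.

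The 3 Scrambled and 10 shControl libraries were fitted with edgeR 4.0.16 in R 4.3.3 (filterByExpr with minimum count 10 and minimum total 15, TMM, robust quasi-likelihood test, two-sided, Benjamini-Hochberg threshold 0.05), with a common biological coefficient of variation of 0.280. No batch or pairing term was used. Levels are TMM CPM over 34 libraries, and fold changes come from the 13-library fit. Alternatives used DESeq2 1.42.0 and limma 3.58.1, other filters and thresholds, a replicate block, the run as a random block with a fitted correlation of 0.312, and fewer libraries. On simulated data of 10986 genes, 90% and 78.3% of genes made 2 higher or lower on the log2 scale were called, and 3.88% of calls were unchanged genes. Simulated libraries were drawn independently, with no runs, so these rates may not hold for libraries that resemble others of their run.

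Members and lists (49 lists, 872 genes) were chosen with earlier results of these data known. Named genes were Degs1 and Yap1, the 12 largest differences in each direction among called genes with separate ranges, a mean log2 CPM from 3 upward and a symbol not of a predicted gene or pseudogene, up to 4 called members of each list (mean log2 CPM from 1 upward), and genes off in 1 control. Other genes are marked as chosen after their values were seen, or are given as uncalled members of a list.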

Additional observations from a re-analysis of the deposited data

Results flagged for a closer look

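In 66 groups of shControl values, 4 single libraries stood far above the others of their group, and about 1 in 20 such groups is marked by chance. Vim reached 56.9 CPM in shControl replicate 2, where the median was 29.8. Gne reached 50.5 CPM in replicate 1 (median 33.8). Cldn15 reached 3.10 CPM (median 0.315) and Gsta4, a glutathione transferase, 140.5 CPM (median 93.6), both in replicate 5. All 4 genes were called between the lines. For Gne, Cldn15 and Gsta4 every Scrambled library lay above the marked one, and for Vim every Scrambled library lay below all of shControl.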

How the results depend on the processing

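The 191 calls became 360 with the Wald test of DESeq2, 353 with 1 fit of all 5 groups, 13 with the run as a random block in limma, 54 at a threshold of 0.01 and 103 with an absolute log2 fold change of at least 1. Against shControl replicates 1 to 4, 5 to 7, 8 to 10 or 5 to 10 alone they were 1380, 1406, 1425 and 309. Leaving out 1 Scrambled library gave 24 to 34 calls. Of the calls 51.8% were higher in Scrambled, against 15.4% with the run block, 31.1% with the fold minimum and 63.3% without Scrambled replicate 3. Size factors of DESeq2, no filter, limma alone and leaving out shControl replicate 3 gave 192, 203, 165 and 203. Replicate numbers did not pair libraries, with correlations of -0.0587, -0.0136 and -0.0391 for equal numbers, and a replicate block gave 646 calls, 120 of the 191 among them. Yap1, which was not called, turned to 0.30 with the replicate block and to 0.16 against shControl 1 to 4. Genes off in Scrambled numbered 3 at 0.5 CPM and 0 at 2 CPM in place of 1, and genes off in shControl 1 at 0.5 CPM. The cause of these changes was not tested.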

Other observations

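Several patterning factors were lower in Scrambled, a group put together after the values were seen and so given with no test of its own. Homeobox genes encode transcription factors that set position and cell type in the embryo and in skin and hair. Beside Msx2, the distal-less genes Dlx3 and Dlx4 lay at 5.87 ± 1.72 and 1.20 ± 1.13 CPM in Scrambled (SD, n = 3) against 16.9 ± 7.44 and 5.68 ± 2.23 CPM in shControl (n = 10), and edgeR put the differences at -1.53 ± 0.39 (adjusted p = 0.0467) and -2.22 ± 0.50 (adjusted p = 0.024). Irx4 lay at 0.802 ± 0.297 against 3.68 ± 1.21 CPM (-2.19 ± 0.49, adjusted p = 0.0224). Tbx3, a T-box factor and not a homeobox gene, lay at 36.7 ± 6.80 against 80.7 ± 18.1 CPM (-1.15 ± 0.21, adjusted p = 0.00618). The ranges of these 4 genes did not overlap. Isx, a homeobox factor too, was called higher (1.94 ± 0.24, adjusted p = 2.20e-04, edgeR), so called homeobox genes went in both directions. The 11 tested Hox genes held no call, with a median of -0.05.

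Galectin-3, a lectin that binds the branched glycans of cell-surface proteins, was among the most abundant genes called. Lgals3 lay at 1535, 1998 and 1201 CPM in Scrambled against 549.6 to 1100.3 CPM in shControl (1.08 ± 0.20, adjusted p = 0.00655, edgeR). Gcnt3, which builds the core of mucin glycans, lay at 8.87 ± 0.895 against 2.77 ± 1.67 CPM (1.64 ± 0.42, adjusted p = 0.0467), and Gmds, the first enzyme toward fucose, at 35.1 ± 3.38 against 20.2 ± 4.21 CPM (0.79 ± 0.19, adjusted p = 0.0311). Lgals3, Gcnt3 and Gmds were named after their values were seen.

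Trp53 transcripts separated runs of the hairpin control, and the range of Scrambled lay inside that of shControl as a whole. They lay at 18.0 to 22.1 CPM in shControl 8 to 10, 1.49 to 5.47 in shControl 1 to 4, 5.52 to 8.33 in shControl 5 to 7 and 5.88 to 8.56 in Scrambled. Scrambled was thus below shControl 8 to 10 without overlap. Between the lines no difference was called by edgeR (-0.35 ± 0.71, adjusted p = 0.876), and an error of that size does not show that they were equal.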
